A study of Mus musculus with 6 samples.

Results

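The ELOVL family holds the 7 mouse enzymes Elovl1 to Elovl7, which lengthen long chain fatty acids. Its members were taken by gene symbol from a table of 19241 genes measured by RNA-seq in whole interscapular brown adipose tissue (iBAT), the brown fat depot between the shoulder blades. All 7 symbols were found, each once. The study compared newborn mice in 2 groups of 3 libraries each: WT, which carried the floxed Fstl1 gene, and KO, the Myf5-Fstl1 KO genotype, in which the floxed gene was removed from cells of the Myf5 lineage. Fstl1 encodes a secreted glycoprotein, and Myf5 marks precursors of skeletal muscle and of much of this brown fat. The labels give no strain and no sex, name no control that carries Cre without the floxed gene, and do not say whether a library came from 1 animal or from pooled animals. Values are FPKM (fragments per kilobase, corrected for how many fragments each library mapped), so levels of different genes can be set side by side per length.

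Fatty acids made in the cytosol leave fatty acid synthase mostly as palmitate, and longer chains are built in the membrane of the endoplasmic reticulum. There an ELOVL enzyme joins malonyl-CoA to an acyl-CoA, the slow and substrate-selective step, after which a ketoacyl-CoA reductase, a hydroxyacyl-CoA dehydratase and an enoyl-CoA reductase complete the cycle. Elovl6 acts on palmitate, Elovl1, Elovl3 and Elovl7 mainly on saturated and monounsaturated chains, Elovl2 and Elovl5 on polyunsaturated chains, and Elovl4 makes the longest chains, known from retina, brain and skin. Elovl3 is known in this tissue as a gene strongly induced in brown fat by cold, and is also expressed in the sebaceous glands of the skin.

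The deleted gene separated the groups: Fstl1 stood at 55.52, 130.04 and 54.37 FPKM in the WT libraries, against 7.93, 13.08 and 8.77 FPKM in the KO libraries, each time in the order of replicates 1, 2 and 3, which all values below follow. Sex differed between the groups as well, since Xist was at 44.82 to 85.51 FPKM in the WT libraries and at most 0.92 FPKM in the KO libraries, while the Y-linked Eif2s3y was at 83.71 to 99.31 FPKM in KO and at most 0.08 FPKM in WT. Genotype and sex therefore cannot be told apart in any comparison below. The tissue carried the defining transcripts of brown fat, with Ucp1 at 1695 to 6255 FPKM and Cidea at 1299 to 1988 FPKM. Depth, as judged by the spacing of low FPKM values, came to 13900000 to 15150000 reads a library. In bulk tissue, fewer cells of a type and less RNA per cell cannot be told apart.

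Elovl5, Elovl6, Elovl3 and Elovl1 made up nearly all ELOVL RNA in WT iBAT, in that order, and in KO iBAT Elovl3 had dropped to the fourth place. In WT the mean levels were 47.3 ± 4.11 FPKM for Elovl5, 25.5 ± 2.65 for Elovl6, 22.7 ± 3.62 for Elovl3 and 17.8 ± 4.86 for Elovl1 (SD, n = 3 each). Elovl5 stood clear of the others, whereas the WT values of Elovl6 and Elovl3 overlapped, as did those of Elovl3 and Elovl1. In KO the means were 50.2 ± 4.26, 26.8 ± 11.9, 15.4 ± 0.481 and 4.0 ± 2.06 FPKM for Elovl5, Elovl6, Elovl1 and Elovl3 (SD, n = 3 each), and Elovl6 overlapped Elovl1 because of 1 low library. Elovl2, Elovl4 and Elovl7 lay between 0.16 and 0.46 FPKM in every library and did not differ from each other beyond their spread. By mean level over the 6 libraries, Elovl5 stood above 91.7% of all genes in the table, Elovl6 above 85.0%, Elovl1 above 78.0% and Elovl3 above 74.2%, against 25.4% to 27.4% for Elovl7, Elovl4 and Elovl2.

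**Figure D1:**
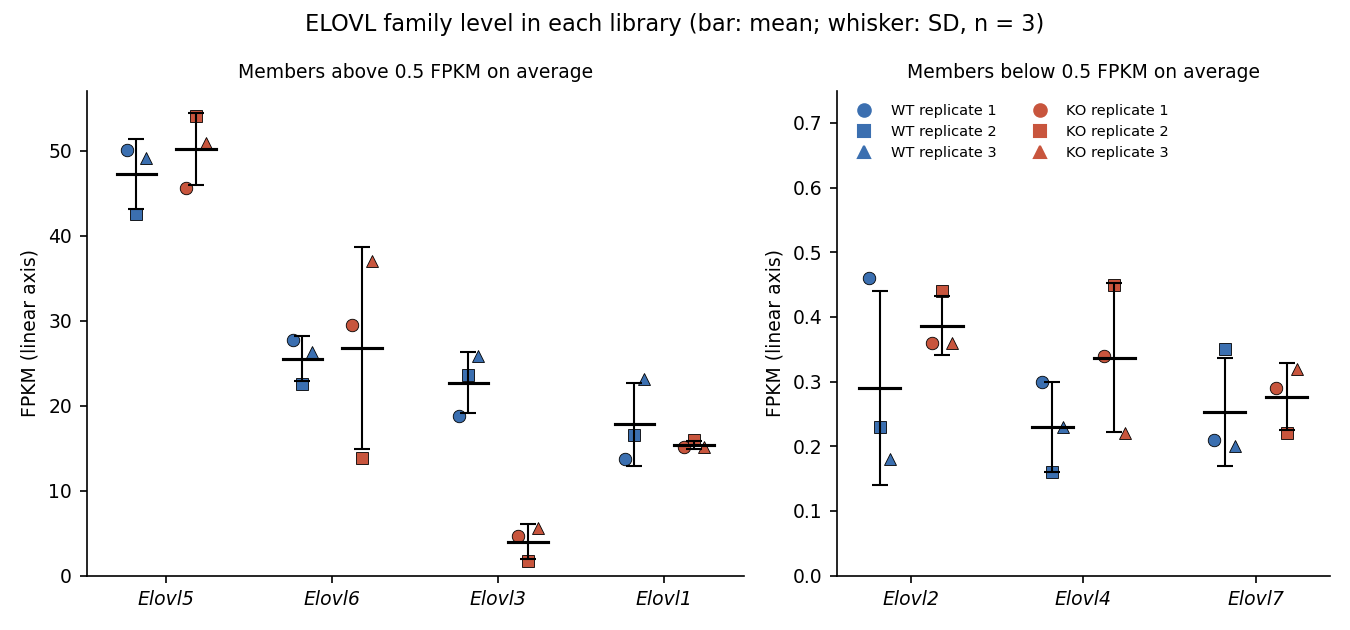
FPKM of each ELOVL member (linear vertical axes, 1 panel for the 4 higher and 1 for the 3 lower members) in the WT (blue) and KO (red) libraries, with marker shape giving the replicate number, the bar the mean and the whisker the SD (n = 3). The KO points of Elovl3 lie at 1.69 to 5.65 FPKM, below all its WT points at 18.77 to 25.85 FPKM, while the groups of the other 6 members overlap.

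Elovl3 (Entrez gene 12686), known for elongating saturated and monounsaturated chains in brown fat, lies on chromosome 19, from 46131897 to 46135694 on the plus strand of mm10. The WT libraries held 18.77, 23.58 and 25.85 FPKM of Elovl3 and the KO libraries 4.67, 1.69 and 5.65 FPKM. The groups did not overlap, the lowest WT library held more than 3 times the level of the highest KO library, and KO replicate 2 was the lowest of all. KO held 17.6% of the WT mean. Elovl3 fell by 2.34 on the log2(FPKM + 1) scale, with a standard error of 0.31 and a 95% confidence interval of −3.04 to −1.63 (limma, adjusted p 0.0151). By size it was the fourth largest fall among 13331 genes tested, and by p-value it ranked 32 among them. Without the pseudocount, the ratio of the group means was −2.51 on the log2 scale. Elovl3 was the 1 call among the 4 members tested, where 2.21% of all genes tested were called, 1.01% as lower and 1.21% as higher in KO. The call was lost without WT replicate 2 (limma, adjusted p 0.074), without WT replicate 3 (limma, adjusted p 0.0815) and without the filter on low values (limma, adjusted p 0.0707), at fold changes of −2.30, −2.24 and −2.34.

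Relative to its level, Elovl3 varied more over the 3 KO than over the 3 WT libraries, through KO replicate 2. Its highest KO library held 3.34 times the level of its lowest, against 1.38 times in WT, and its coefficient of variation was 51.5% in KO and 15.9% in WT. Without KO replicate 2, the lowest library, KO replicates 1 and 3 differed 1.21 times, with a coefficient of variation of 13.4%. This value leaves out the lowest KO library, while that of WT leaves out none, so they cannot be ranked. Without the same library, the log2 fold change of Elovl3 was −1.94 (limma, adjusted p 0.0145). The opposite strand at this locus carries Pitx3, which shares 10 exon bases with Elovl3 in the GENCODE annotation. Strand handling is not given in the sources used here, so reads of Elovl3 and Pitx3 cannot be told apart over these bases if strand was not used.

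Elovl6 (Entrez gene 170439; chromosome 3, 129532355 to 129638495, plus strand), the elongase of palmitate, had 27.69, 22.56 and 26.27 FPKM in WT against 29.54, 13.80 and 37.03 FPKM in KO. KO replicate 2 was the lowest and KO replicate 3 the highest of the 6 libraries, so the KO values lay on both sides of the WT values. The log2 fold change of Elovl6 was −0.03 with a 95% confidence interval of −0.73 to 0.66 (limma, adjusted p 0.97). This interval leaves room for a change of either sign. The KO libraries stood in the same order for Elovl6 and Elovl3, replicate 3 highest and replicate 2 lowest, as they did for Ucp1, at 2902, 1695 and 3592 FPKM.

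Elovl5 (Entrez gene 68801; chromosome 9, 77917364 to 77984519, plus strand), the elongase of polyunsaturated chains, varied little within either group. Its level was 50.09, 42.56 and 49.19 FPKM in WT against 45.63, 54.07 and 50.92 FPKM in KO. Its coefficient of variation was 8.7% in WT and 8.49% in KO, and its log2 fold change was 0.09 with a 95% confidence interval of −0.23 to 0.40 (limma, adjusted p 0.79). KO replicate 2, the lowest library for Elovl3 and Elovl6, was the highest for Elovl5.

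Elovl1 (Entrez gene 54325; chromosome 4, 118428093 to 118432953, plus strand), which makes saturated very long chains used in sphingolipids, had 13.69, 16.60 and 23.18 FPKM in WT against 15.09, 15.96 and 15.17 FPKM in KO. All KO values lay inside the WT range, and WT replicate 3 was the high library. The log2 fold change of Elovl1 was −0.17 with a 95% confidence interval of −0.60 to 0.26 (limma, adjusted p 0.675). Cdc20, a cell cycle gene on the opposite strand, shares 53 exon bases with Elovl1, with the same limit on telling their reads apart.

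The remaining members were near the floor of these libraries. They are Elovl2 (Entrez gene 54326; chromosome 13, 41182381 to 41220405, minus strand), Elovl4 (83603; chromosome 9, 83778692 to 83806277, minus strand) and Elovl7 (74559; chromosome 13, 108214404 to 108285683, plus strand). Elovl2 was at 0.46, 0.23 and 0.18 FPKM in WT and 0.36, 0.44 and 0.36 FPKM in KO, Elovl4 at 0.30, 0.16 and 0.23 FPKM and 0.34, 0.45 and 0.22 FPKM, and Elovl7 at 0.21, 0.35 and 0.20 FPKM and 0.29, 0.22 and 0.32 FPKM. The groups overlapped in all 3 genes. At the estimated depth, these values correspond to about 7.2 to 25.6 reads per gene and library, where counting error is large. None of the 3 reached the mean of 0.5 FPKM required for the test. With no filter they had log2 fold changes of 0.11, 0.12 and 0.03 for Elovl2, Elovl4 and Elovl7 (limma, adjusted p 0.607, 0.532 and 0.87).

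Promoter windows from RefSeq (GRCm38.p6, the assembly also called mm10), each with 250 bases before and 50 after a transcription start, were matched for 6 of the 7 members, all but Elovl3. The windows of Elovl5 and Elovl6 are shown because these members held the most ELOVL RNA in both groups while differing in their spread among the KO libraries. Both are on the plus strand and read 5′ to 3′. Capitals mark every match, on either strand, to TGACGTCA (the cAMP response element), CACGTG (an E-box), AGGTCA (a nuclear receptor half-site), CCAAT (the usual site of the factor NF-Y), GGGCGG (a GC box) or TATAAA. No match overlapped another in these 2 windows.
Elovl5, chr9:77917115-77917414: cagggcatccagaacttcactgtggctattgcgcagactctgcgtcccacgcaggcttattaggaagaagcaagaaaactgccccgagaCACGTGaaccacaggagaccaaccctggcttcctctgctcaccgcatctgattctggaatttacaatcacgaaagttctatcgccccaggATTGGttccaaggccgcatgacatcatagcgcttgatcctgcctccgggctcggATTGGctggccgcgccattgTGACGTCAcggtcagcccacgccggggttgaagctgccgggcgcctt
Elovl6, chr3:129532136-129532435: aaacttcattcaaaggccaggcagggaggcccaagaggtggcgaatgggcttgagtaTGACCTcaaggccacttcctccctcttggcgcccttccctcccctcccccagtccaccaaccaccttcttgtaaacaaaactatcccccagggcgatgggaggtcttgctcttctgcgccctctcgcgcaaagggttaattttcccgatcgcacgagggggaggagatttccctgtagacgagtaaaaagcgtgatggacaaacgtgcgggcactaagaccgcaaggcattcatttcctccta
The Elovl5 window held 1 cAMP response element, 1 E-box and 2 CCAAT boxes, and the Elovl6 window held 1 nuclear receptor half-site. Of 32851 windows of the same length, 1.79% held TGACGTCA, 7.15% CACGTG, 16.3% AGGTCA, 37.4% CCAAT, 35.7% GGGCGG and 13.6% TATAAA. The windows of Elovl1, Elovl2, Elovl4 and Elovl7 carried GC boxes, 5 and 2 in the 2 windows of Elovl1, 5 and 0 in those of Elovl2, 2 in Elovl4 and 3 in Elovl7. The Elovl4 window also held an E-box and a CCAAT box, and Elovl1 a CCAAT box in 1 window and a half-site in the other. These matches describe letters in a window and were not tested for a role in the values above.

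The make-up of ELOVL RNA shifted with Elovl3. In WT libraries Elovl3 supplied 16.9%, 22.2% and 20.7% of the summed ELOVL FPKM, and in KO libraries 4.87%, 1.95% and 5.15%. The mean share went from 19.9% ± 2.75 to 3.99% ± 1.77 (SD, n = 3 each), and the groups did not overlap. Elovl5 took 45.0%, 40.1% and 39.3% in WT and 47.6%, 62.4% and 46.4% in KO, with no overlap, although its own level overlapped between the groups. The sum includes Elovl3, so the fall of Elovl3 by itself raises every other share. The separation in the share of Elovl5 is therefore no evidence of a change in Elovl5. The shares of Elovl6 (21.0% to 24.9% in WT, 15.9% to 33.8% in KO) and Elovl1 (12.3% to 18.5% and 13.8% to 18.4%) overlapped. The summed level was 114 ± 9.86 FPKM in WT and 97.4 ± 11.6 FPKM in KO, and without Elovl3 it was 91.4 ± 8.44 and 93.4 ± 9.72 FPKM (SD, n = 3 each). Without KO replicate 2, KO minus WT in the share of Elovl5 was 5.5 percentage points instead of 10.6, and in that of Elovl6 9.89 instead of 4.44. The difference for Elovl6 was 2.46 points without KO replicate 1 and 0.972 without KO replicate 3. These shares and sums are descriptions with no test.

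**Figure D2:**
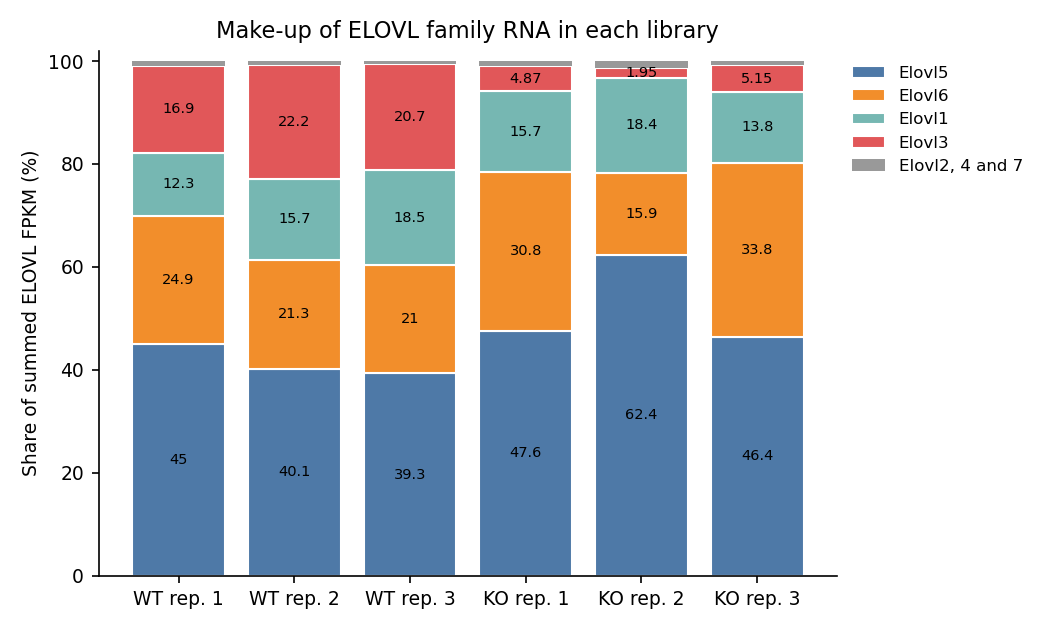
Share of each member in the summed ELOVL FPKM (vertical axis, percent) of each library (horizontal axis, 3 WT then 3 KO), as stacked bars with the share printed inside. The red block of Elovl3 takes 16.9% to 22.2% in WT and 1.95% to 5.15% in KO, and the blue block of Elovl5 is largest in KO replicate 2, at 62.4%.

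Whether Elovl3 differed from its relatives was examined with its ratio to each of them in each library. Elovl3 was at 1.37, 1.42 and 1.12 times the level of Elovl1 in WT and at 0.309, 0.106 and 0.372 times in KO. Against Elovl6 the ratio was 0.678, 1.05 and 0.984 in WT and 0.158, 0.122 and 0.153 in KO, the narrowest KO spread of the 8 ratios (SD 0.20 on the log2 scale). On the log2 scale, KO minus WT was −2.49 against Elovl1, −2.75 against Elovl5 and −2.63 against Elovl6. Against the 3 low members it was −3.20 for Elovl2, −3.20 for Elovl4 and −2.83 for Elovl7, on few reads. No ratio overlapped between the groups. All 8 ratios share Elovl3 as numerator, and its own values did not overlap between the groups. The 8 ratios therefore largely restate the fall of Elovl3 and are not separate results. Each gave an exact two-sided permutation p of 0.1, the smallest that 3 libraries against 3 allow, and 0.1 after Benjamini-Hochberg adjustment over the 8 ratios, so this design cannot reach 0.05.

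Elovl3 was also lower relative to Ucp1 and Adipoq, but not in every library relative to every adipocyte transcript. Per 1000 FPKM of Ucp1, the uncoupling protein of brown fat, Elovl3 stood at 4.30, 3.85 and 4.13 FPKM in WT against 1.61, 0.997 and 1.57 FPKM in KO. The WT libraries agreed closely on this ratio (SD 0.08 on the log2 scale), and KO minus WT was −1.59 (exact permutation p 0.1, adjusted 0.1). Per 1000 FPKM of Adipoq, which encodes the adipocyte hormone adiponectin, Elovl3 stood at 21.1, 25.2 and 24.0 FPKM in WT against 4.12, 1.39 and 5.27 FPKM in KO, a difference of −2.91 on the log2 scale (exact permutation p 0.1, adjusted 0.1). Ucp1 itself did not pass the test (log2 fold change −1.08, limma, adjusted p 0.0804), but KO held 48.9% of its WT mean. It was at 4366, 6124 and 6255 FPKM in WT against 2902, 1695 and 3592 FPKM in KO. These groups did not overlap, as in 24.9% of all genes tested. Adipoq did not pass either (0.24, limma, adjusted p 0.392), and its groups overlapped. Per 1000 FPKM of Agpat2, an enzyme of triglyceride synthesis that was itself called lower, Elovl3 stood at 81.0, 44.6 and 41.6 FPKM in WT and 32.1, 16.7 and 106 FPKM in KO. KO replicate 3 was thus the highest of all libraries on this ratio, which was chosen after its values were seen and was not tested.

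**Figure D3:**
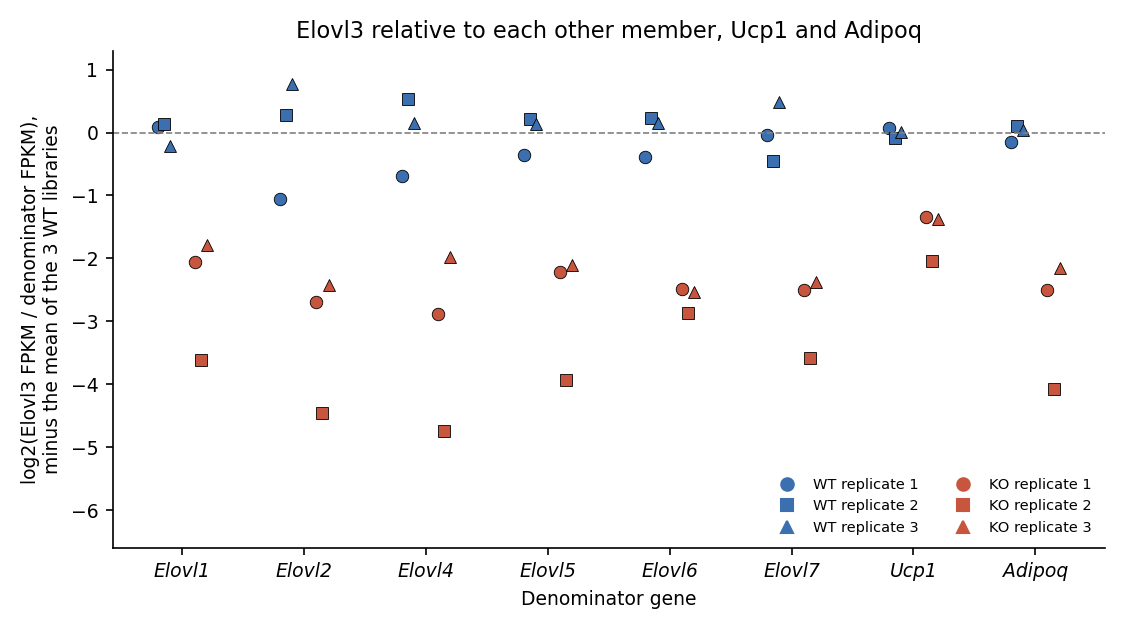
Log2 of Elovl3 FPKM over the FPKM of each denominator gene (horizontal axis) in each library, with the mean of the 3 WT libraries subtracted (vertical axis, log2 units). WT points (blue) scatter around 0 and KO points (red) lie below them for all 8 denominators, nearest to WT for Ucp1, where the group means differ by −1.59, and KO replicate 2 (square) is the lowest in each.

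None of the enzymes that complete the elongation cycle was called, and their levels ranged from 171 to 193 FPKM in the group means of Hsd17b12 down to values near 1 FPKM for Hacd4 and Tecrl. Of 7 such genes, all tested, 0 passed (limma), 2 had an unadjusted p under 0.05 (19.2% of all genes tested did), 6 had a negative and 1 a positive fold change, and the median log2 fold change was −0.18, against 0.01 over all genes tested. Hsd17b12, the ketoacyl-CoA reductase, was at 193 ± 10.7 FPKM in WT and 171 ± 20.4 FPKM in KO (SD, n = 3 each), above every ELOVL member. Hacd2, a hydroxyacyl-CoA dehydratase, had 23.66, 35.04 and 25.82 FPKM in WT against 20.40, 18.43 and 19.32 FPKM in KO (log2 fold change −0.50, limma, adjusted p 0.161). Its relative Hacd3 was at 13.78, 15.69 and 11.69 FPKM and at 11.00, 10.20 and 9.43 FPKM (−0.39, limma, adjusted p 0.219). Hacd2 and Hacd3 were the 2 partners whose groups did not overlap, where 24.9% of all genes tested did not overlap. The summed level of the 7 partners was 356 to 405 FPKM in WT and 329 to 353 FPKM in KO.

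**Figure D4:**
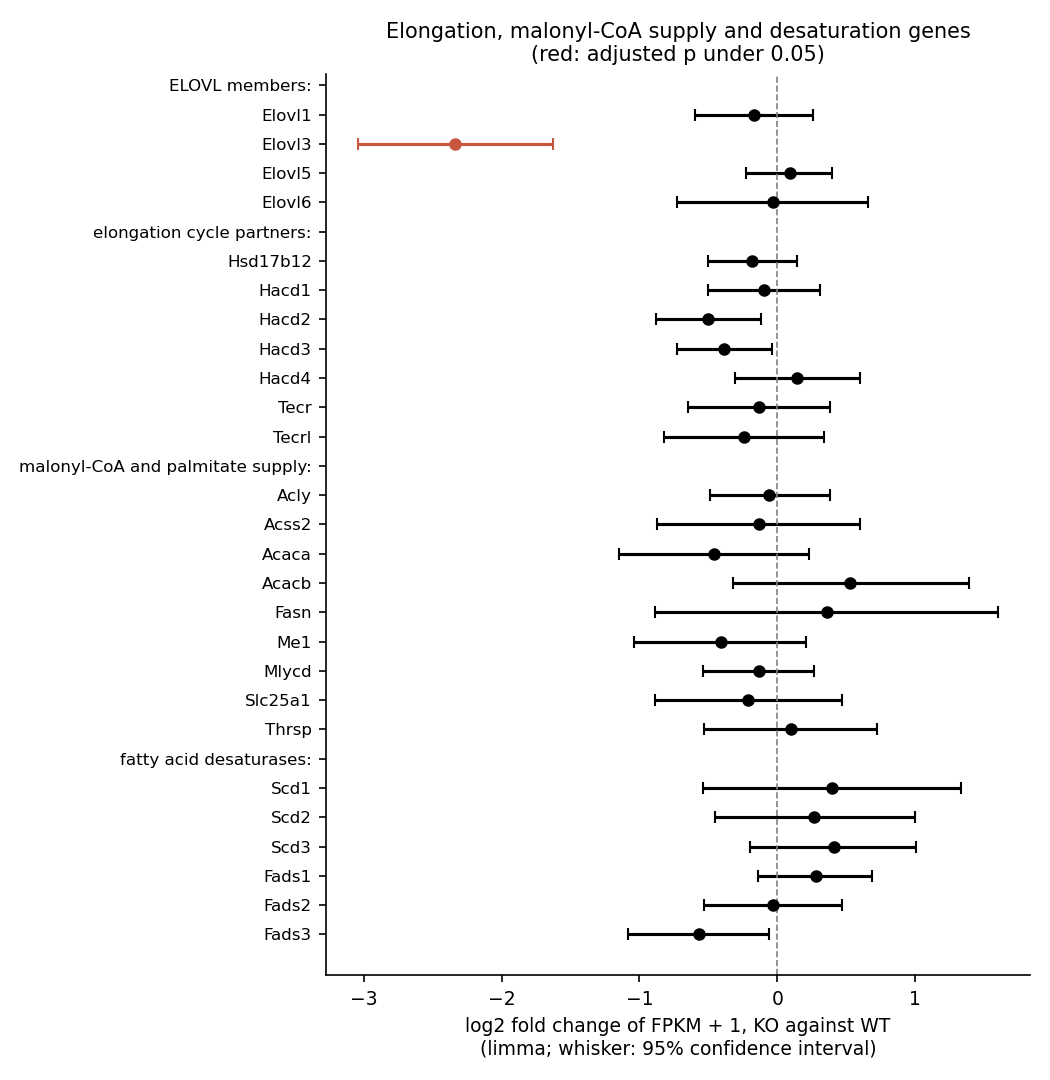
Log2 fold change of FPKM + 1, KO against WT (horizontal axis), with 95% confidence intervals from limma, for the 4 ELOVL members tested and the tested genes of 3 pathway lists (vertical axis). Elovl3, at −2.34, is the one gene drawn in red for an adjusted p under 0.05, and its interval lies below that of every other gene shown.

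The supply of malonyl-CoA and palmitate showed wide spread within groups. Of 9 genes tested, 0 passed (limma), 0 had an unadjusted p under 0.05, and the median log2 fold change was −0.13. The 3 with the smallest p were Acaca (−0.46, limma, adjusted p 0.447) and Acacb (0.53, limma, adjusted p 0.478), the acetyl-CoA carboxylases, and Me1, the cytosolic malic enzyme (−0.41, limma, adjusted p 0.451). Fasn, fatty acid synthase, had 10.27, 30.82 and 54.16 FPKM in WT against 56.83, 19.52 and 33.94 FPKM in KO (limma, adjusted p 0.773). WT replicate 1 was the lowest of all libraries for Fasn and also for Elovl3 within WT.

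Desaturases, which place double bonds in the chains that elongases make, gave a median log2 fold change of 0.28 over 6 tested of 8 genes. Of the 6, 0 were called (limma) and 1 had an unadjusted p under 0.05, against 19.2% of all genes tested. That gene was Fads3, with 7.36, 12.04 and 14.01 FPKM in WT against 8.21, 6.38 and 6.41 FPKM in KO (−0.57, limma, adjusted p 0.219). Scd3 (0.41, limma, adjusted p 0.445) and Fads1 (0.28, limma, adjusted p 0.451), the delta-5 desaturase, came next. Scd1, which desaturates the stearate that Elovl6 makes and whose groups overlapped, had 206.61, 234.16 and 564.57 FPKM in WT against 667.08, 314.95 and 296.82 FPKM in KO (limma, adjusted p 0.645).

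Sphingolipid synthesis and peroxisomal oxidation are routes that use very long chains. Of 8 tested ceramide synthase and sphingolipid genes 1 was called higher and 0 lower in KO (limma), where 1.21% and 1.01% of all genes tested were. Their median log2 fold change was −0.02. Kdsr, the reductase of sphingoid base synthesis, had 12.36, 9.81 and 9.93 FPKM in WT against 18.56, 17.56 and 19.35 FPKM in KO. Kdsr rose by 0.74 on the log2 scale (SE 0.15, limma, adjusted p 0.0422), with no overlap between groups, and missed the threshold in 7 of the 15 alternative fits. Cers2, the ceramide synthase that uses very long acyl chains, was at 75.9 ± 5.67 FPKM in WT and 71.3 ± 4.87 FPKM in KO (SD, n = 3 each; −0.09, limma, adjusted p 0.764). Among 11 tested genes of very long chain oxidation in peroxisomes, 0 passed (limma) and the median was −0.08. An unadjusted p under 0.05 was found for 3, against 19.2% of all genes tested. These 3 were Abcd3, a peroxisomal membrane transporter (−0.76, limma, adjusted p 0.102), the thiolase gene Acaa1b (−0.77, limma, adjusted p 0.137) and the oxidase gene Acox3 (0.61, limma, adjusted p 0.223).

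The regulators of lipogenic and brown fat genes had the lowest median among the 6 pathway lists, −0.37, while 0 of 20 passed (limma). Of these 20 genes, 9 had an unadjusted p under 0.05, against 19.2% of all genes tested, and 8 did not overlap between the groups, against 24.9%. The fold change was negative in 13 and positive in 7. Prdm16, a transcriptional coregulator of brown fat identity, had 5.25, 4.91 and 4.13 FPKM in WT against 3.0, 1.89 and 1.68 FPKM in KO (−0.87, limma, adjusted p 0.0519). Mlx, the partner of the carbohydrate response factor ChREBP, was at 21.19, 23.26 and 25.34 FPKM and at 14.53, 14.51 and 10.01 FPKM (−0.81, limma, adjusted p 0.0533). Both were lower in every KO library than in any WT library and stood just outside the threshold. Insig1, which holds back the processing of SREBP proteins, had 16.03, 20.33 and 18.47 FPKM in WT against 30.99, 26.60 and 40.49 FPKM in KO (0.79, limma, adjusted p 0.0624). Srebf1, which encodes SREBP-1, the known activator of Elovl6, had 34.44, 41.87 and 42.80 FPKM in WT against 25.96, 25.52 and 10.97 FPKM in KO (−0.99, limma, adjusted p 0.118). KO replicate 3 had the lowest Srebf1 and the highest Elovl6 of the 6 libraries. A part of Srebf1 in the level of Elovl6 was not tested. Ppara, a nuclear receptor known to act on Elovl3, had 80.63, 69.39 and 83.64 FPKM in WT against 79.97, 78.55 and 27.75 FPKM in KO (limma, adjusted p 0.516). Its low library was KO replicate 3, and a part of Ppara in the level of Elovl3 was not tested. Cidea, Fasn, Scd1, Cers2, Srebf1, Ppara, Hacd4, Tecrl and Fabp4 were chosen for mention after their values were seen.

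**Figure D5:**
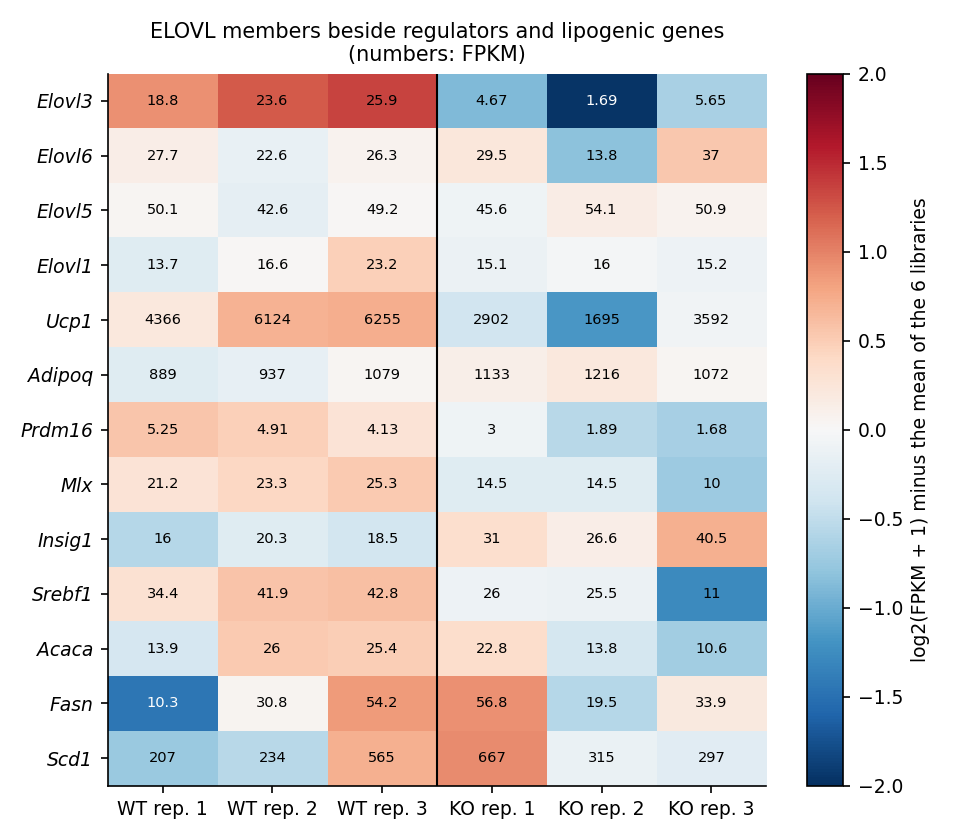
Level of the 4 higher ELOVL members, 2 adipocyte transcripts, 4 regulators and 3 lipogenic genes (vertical axis) in each library (horizontal axis), coloured by log2(FPKM + 1) minus the mean of the 6 libraries, with FPKM printed in each cell. Elovl3 changes from red in all WT to blue in all KO libraries, whereas Elovl6 is lowest in KO replicate 2 and highest in KO replicate 3.

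Markers of cell types that the depot could hold were set beside the fall of Elovl3. Of 12 brown adipocyte markers 1 was called, Otop1, an ion channel of brown fat (−1.52, limma, adjusted p 0.0243), which was lower, where 1.01% of all genes tested were called lower, and the median log2 fold change was −0.09. In 3 of the 12, all lower in KO, the groups did not overlap, against 24.9% of all genes tested. This list holds Slc27a2 and S100b beyond the brown adipocyte markers named in the analysis plan. Of 12 general adipocyte markers 3 were called, all lower: Plin1 (−1.36, limma, adjusted p 0.0267), Acsl1 (−0.69, limma, adjusted p 0.0417) and Agpat2 (−2.18, limma, adjusted p 0.0417), with a median of −0.31, against the same 1.01%. Otop1, Plin1, Acsl1 and Agpat2 each missed the threshold in 5 to 8 of the 15 alternative fits. Acsl1 and Agpat2 are lipid enzymes outside the adipocyte markers named in the analysis plan, of which Plin1 alone was called. Both lists were chosen with earlier results of these data known, so these counts do not measure a loss of adipocytes. The summed level of the 12 brown adipocyte markers was 7817, 10524 and 12597 FPKM in WT against 7916, 6369 and 8105 FPKM in KO, so that WT replicate 1 lay among the KO values. That of the 12 general adipocyte markers was 20640 to 24211 FPKM in WT and 20567 to 22317 FPKM in KO, most of it from the fatty acid binding protein gene Fabp4, at 14000 to 17389 FPKM in the 6 libraries. Epidermal and sebaceous markers, another source of Elovl3 and Elovl4 transcripts, were found for 9 of 12 listed genes. The 9 summed to 3.75 to 5.84 FPKM in WT and 4.65 to 6.33 FPKM in KO, and 6 of them averaged under 0.5 FPKM. Krt5, Krt14, Krt1 and Krt15 were at 0 FPKM in every WT library and at most at 0.27 FPKM in KO. The 19241 genes included none at 0 in all libraries. Of the 3 tested 0 were called (limma). Mc5r, a melanocortin receptor of sebaceous glands, had an unadjusted p under 0.05 (0.79, limma, adjusted p 0.106), as did 19.2% of all genes tested. The other two, the keratins Krt79 and Krt10, had −0.38 and −0.17 (limma, adjusted p 0.519 and 0.557). Elovl3 alone exceeded the sum of the 9 in each WT library and in KO replicate 3, and lay below it in KO replicates 1 and 2. The level of Elovl3 relative to these markers in skin was not measured here. The comparison therefore does not give the source of the Elovl3 reads, which was not tested.

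Other cell types moved between libraries without a call in any of their lists. All 12 macrophage markers had a positive fold change, with a median of 0.48, 0 called (limma) and 6 at an unadjusted p under 0.05, against 19.2% of all genes tested, and their sum was 144 to 214 FPKM in WT and 205 to 280 FPKM in KO. Cd163 (0.62, limma, adjusted p 0.0831), Itgam (0.66, limma, adjusted p 0.0957) and C1qb (0.59, limma, adjusted p 0.106) had the smallest p. Skeletal muscle markers had a median of −0.65 over 11 tested genes, 0 called (limma) and 1 at an unadjusted p under 0.05, and summed to 288 FPKM in KO replicate 1 against 1162 to 1687 FPKM in the other 5 libraries. The muscle genes with the smallest p were Mb, which encodes myoglobin (−0.96, limma, adjusted p 0.169), Tnni2 (−0.84, limma, adjusted p 0.368) and Acta1 (−0.85, limma, adjusted p 0.461). Tnni2 and Acta1 were lowest in KO replicate 1. Mb was not, at 11.27, 27.39 and 32.26 FPKM in WT against 11.67, 9.01 and 11.44 FPKM in KO. Erythroid markers summed to 14404 FPKM in WT replicate 3 and to 3077 to 5074 FPKM in the others. Of 9 erythroid genes tested 0 were called (limma) and 0 had an unadjusted p under 0.05, with a median of −0.45, and the globin genes Hba-a2 (−0.87), Hbb-bs (−0.81) and Hba-a1 (−0.83) had the smallest p (limma, adjusted p 0.342, 0.341 and 0.367). WT replicate 3, high in erythroid RNA, had the highest Elovl3, and without it the log2 fold change of Elovl3 was −2.24. KO replicate 1, low in muscle RNA, had the middle Elovl3 value of the KO group, and the fold change without that library was −2.48. The part of these cell types in the values of the ELOVL genes was not tested. The endothelial list (median −0.05) and the Schwann cell and nerve list (−0.03) had 0 calls (limma), with 1 and 0 genes at an unadjusted p under 0.05. Their genes with the smallest p were Cldn5 (−0.71), Emcn (−0.38) and Flt1 (−0.18) of the endothelium (limma, adjusted p 0.237, 0.332 and 0.595). Of the Schwann cell and nerve genes, Sox10 had −0.08 and Pmp22 −0.06 (limma, adjusted p 0.817 and 0.9).

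Among 12138 genes averaging 1 FPKM or more, those whose log2(FPKM + 1) followed each member most closely over the 6 libraries differed from member to member. Elovl3 was followed by Tpx2, a spindle assembly factor (Pearson r 0.990), Psmc5, a proteasome ATPase subunit (0.989), and Them4, a thioesterase (0.986). Each of these 3 genes separated the groups, which their choice by likeness to Elovl3 favours, and 24.9% of all genes tested did so. KO stood at 66.7%, 73.7% and 62.8% of the WT mean in Tpx2, Psmc5 and Them4. None of the 3 passed the test (limma, adjusted p 0.124, 0.137 and 0.0591). Elovl6 was followed by Ppfibp2 (0.985), Tom1l2 (0.964) and the transcription factor gene Nfia (0.959), each lowest in KO replicate 2 and highest in KO replicate 3. Elovl1 was followed by Cox5a, a subunit of cytochrome oxidase (0.998), Sf3b5 (0.994) and Eva1b (0.994), each highest in WT replicate 3. Elovl5 was followed by Nsmce2 (0.981), Tmem159 (0.961) and Nsl1 (0.948). With 6 libraries many genes reach such values: 68 genes exceeded 0.95 with Elovl3, 77 with Elovl1, 7 with Elovl6 and 2 with Elovl5. The correlations share the same 6 libraries and are a description with no test.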

How the data were processed

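RNA-seq libraries of total RNA from whole iBAT were grouped by their titles, 3 WT and 3 KO. The authors deposited 1 table of FPKM per gene and library, per the file headers, rounded to 2 decimals. The submitters' processing notes name mm10, HISAT2 2.0.4, Bowtie2 2.2.5 and DESeq2, without their roles. The counting tool and strand handling are not given in the sources used here.

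FPKM are not counts, so log2(FPKM + 1) was tested with limma 3.58.1 (eBayes with trend, no covariates) in R 4.3.3 for the 13331 genes averaging 0.5 FPKM or more. P-values were adjusted over all of them (Benjamini-Hochberg, threshold 0.05). Fold changes on this scale understate the change of low genes. P-values measure only the spread between these libraries, which the labels do not tie to separate animals. The FPKM sums were 486449 to 556968 per library. Depth was estimated from the spacing of low FPKM values in single-transcript genes, where 1 read has a fixed worth: 76.7% to 81.9% lay within 0.2 of a whole read, against 39.9% to 44.1% with shuffled lengths. The depth was chosen to give the highest such share, and the shuffled lengths were scored only at that depth. These shares are therefore not like for like. In data made with known changes of 1 and 2 on the log2 scale for 200 of 13331 genes, this KO against WT test recovered 60.5% and 93.0%. The 200 were drawn from genes with a mean log2(FPKM + 1) above 2, and noise was independent for each gene and library. Recovery of lower genes, and the effect of differences shared by a whole library, were not covered.

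The members and the 14 gene lists (163 genes) were chosen with earlier results of these data known. Named were all members, Fstl1, each list's called genes or otherwise its 3 with the smallest p, and for each tested member the 3 most correlated genes. One gene that this rule names is not reported here. Alternatives were the pseudocounts 0.1 and 0.01, filters at 0 and 5 FPKM, quantile and median-of-ratios scaling, 2 variance models, the replicate block and leaving out each library. Python 3.11.15, scipy 1.17.1 and matplotlib 3.10.9 were used for the rest.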

Additional observations from a re-analysis of the deposited data

How the results depend on the processing

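Elovl3 was lower in KO in all 15 alternative fits, and it passed in 12. Its log2 fold change ranged over −2.66 to −1.94 and its adjusted p (limma) over 0.0072 to 0.0815. With no filter it stood at −2.34 and missed the threshold. Leaving out 1 library gave −2.59 to −1.94, and 0 to 1 members called. The 0 calls, with no filter and without WT replicate 2 or 3, came with 1 member at an unadjusted p under 0.05 each. Elovl1 ran from −0.33 to 0.03 without 1 library, turning at 0.03 without WT replicate 3. Elovl6 ran from −0.31 to 0.37, turning at 0.03 without WT replicate 1 and 0.37 without KO replicate 2.

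Over all genes the count of 295 became 35 with no filter, where 19241 genes were tested, and 31 to 370 without 1 library, the extremes coming without WT replicates 3 and 1. Of the list genes 5 were called, 8 with the filter at 5 FPKM, 0 with no filter (29 at an unadjusted p under 0.05) and 0 to 8 without 1 library. The cause was not tested. With the replicate block 167 genes, 3 list genes and 1 member were called, and Elovl3 stayed past the threshold at −2.34 (limma, adjusted p 0.0177). Same-numbered libraries deviated from their group means with weak correlations of 0.068, 0.043 and 0.043, each the highest for both libraries. Correlations this weak do not settle whether libraries were paired, the design names no pairs, and the numbers were not taken as pairs.

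Without Elovl5 in the sum, by construction, KO minus WT shares became −25.9 points for Elovl3, 8.59 for Elovl1 and 16.2 for Elovl6, against −15.9, 0.498 and 4.44 with it. The 8 ratios of Elovl3 kept their direction in every fit that left out 1 library and with the replicate block. For groups that do not overlap this holds by construction. Depth limits Elovl2, Elovl4 and Elovl7, at 7.2 to 25.6 estimated reads.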

Other observations

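In 4 genes, chosen here after their values were seen, KO replicate 3 lay far from the other libraries, while for Abcd3 (78.19 FPKM beside 79.68 FPKM in KO replicate 1) and Acaa1b (2.54 beside 2.5 FPKM), of the same peroxisomal list as Ehhadh, it did not. Ehhadh, a peroxisomal bifunctional enzyme, ranged over 61.97 to 77.57 FPKM in WT, against 95.33, 72.14 and 501.06 FPKM in the KO libraries (log2 fold change 1.14, limma, adjusted p 0.339). Slc27a2, which encodes a very long chain acyl-CoA synthetase, ranged over 13.20 to 25.37 FPKM in WT, against 46.34, 17.98 and 144.88 FPKM in KO (1.27, limma, adjusted p 0.299). In the same library Ppara was at 27.75 FPKM against 69.39 to 83.64 FPKM in WT, and Cebpa, an adipocyte transcription factor gene, at 73.37 FPKM against 178.17 to 244.42 FPKM in WT. Elovl3 did not single out this library, at 5.65 FPKM against 4.67 and 1.69 FPKM in the other KO libraries, while Elovl6 was highest there, at 37.03 FPKM.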
